A study of Arabidopsis thaliana with 24 samples.

Results

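The ethylene response factors (ERFs) are plant transcription factors that share the AP2/ERF DNA-binding domain, and 8 of them could be followed in the deposited table of DMS reactivity. Their loci were chosen by a list of 10, drawn up with earlier results of these data in view, and selected on being present in that table. The listed loci are ERF1A (AT4G17500), ERF2 (AT5G47220), ERF4 (AT3G15210), ERF5 (AT5G47230), ERF6 (AT4G17490), ERF7 (AT3G20310), ERF8 (AT1G53170), ERF13 (AT2G44840), ERF104 (AT5G61600) and ERF105 (AT5G51190). ERF8 and ERF13 are not analysed here. Each of the other members had 1 isoform, so the members are 8 of the 12978 transcripts and 8 of the 8956 loci in the table. Because the choice was made with results known, all values below are descriptions, and no test is attached to them.

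Whole roots and shoots came from Col-0 plants in hydroponic culture that had grown for 24 days when salt was added. The 4 conditions were roots of plants given 100 mM NaCl for 48 h, roots of control plants kept without added salt, shoots of salt-treated plants and shoots of control plants. In each condition 3 libraries were made with DMS (0.75%, 5 min) and 3 without, each from about 40 plants, and the table gives 1 combined value per transcript and condition. DMS, dimethyl sulfate, enters tissue and methylates adenines and cytosines that are neither paired nor shielded, and the position of each methyl group is read as a stop of reverse transcription.

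Ethylene is a gaseous hormone that is made from ACC by ACC synthases and ACC oxidases. It binds receptors that otherwise keep the kinase CTR1 active, and its signal passes through the membrane protein EIN2 to the transcription factors EIN3 and EIL1, which switch on ERF genes. ERF proteins bind the GCC box in the promoters of defence and stress genes. Members of group IX of the family, here ERF1A, ERF2, ERF5, ERF6, ERF104 and ERF105, are known mainly as activators. Members of group VIII, here ERF4 and ERF7, carry an EAR motif and repress transcription. ERF transcripts are typical rapid-response messages that accumulate quickly after stress.

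The values are scores in the authors' own units: the mean reactivity of a transcript, the standard deviation between its bases and its highest value, together with the Gini index, which runs from 0 for even reactivity to 1 for reactivity held by few bases. Read depth and the level of each transcript are unknown. In control shoots the standard deviation was nearly the same for most transcripts, with an interquartile range of 0.363 to 0.375 over all loci, and Spearman's rho between mean reactivity and Gini index across loci was -0.993. It was -0.279 in salt-treated roots, -0.223 in control roots and -0.786 in salt-treated shoots. What this scale contributes to ratios against control shoots was not tested. No spread between replicates can be computed, so no difference below is known to exceed it. In whole roots and shoots, a change in the RNA of given cells and a change in which cells supply the RNA cannot be told apart.

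The salt comparison asks, from the title of the series, how the stress altered RNA structure in the separate tissues. In the 6 group IX members, listed with earlier results known, the salt ratio had opposite signs in the tissues. All 6 had a lower mean reactivity in salt-treated than in control roots, and all 6 had a higher one in salt-treated than in control shoots. That combination was found in 510 of 8891 loci (5.74%). ERF15, a group IX factor outside the list of members, did not show it. Neither group VIII member did, but 2 transcripts are too few to set that group apart. The sizes ranged widely, from ERF6, which lay near the extreme of all transcripts in both tissues, to ERF1A, which was nearly level in both.

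ERF6, a substrate of stress-activated MAP kinases, had the most divergent values. Its mean reactivity was 0.153 in salt-treated roots, against 0.207 in control roots, and 0.412 in salt-treated shoots, against 0.280 in control shoots. In roots the salt value was 0.738 times the control value (log2 ratio -0.44), and 0.697% of loci had a lower ratio. In shoots it was 1.47 times the control value (log2 ratio 0.55), and 0.123% of loci had a higher ratio. Among all loci the ERF6 transcript was more reactive than 7.72% in salt-treated roots and 57.7% in control roots, and more reactive than 98.3% in salt-treated shoots and 56.0% in control shoots. Without salt it was thus an ordinary transcript in either tissue, and with salt it stood near the top in shoots and near the bottom in roots.

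ERF2, an activator of defence genes, had the lowest salt ratio of the members in roots. Its mean reactivity was 0.208 in salt-treated roots, against 0.310 in control roots, and 0.389 in salt-treated shoots, against 0.359 in control shoots. The root value with salt was 0.673 times that without (log2 ratio -0.57), and 0.427% of loci had a lower ratio. In shoots the log2 ratio was 0.11. Control roots held the highest ERF2 rank of the root conditions, above 92.7% of loci, while salt-treated roots had it near the middle, above 48.2%. In shoots ERF2 was already high, above 96.5% of loci with salt and 94.8% without.

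ERF105, which takes part in cold responses, was among the transcripts with the larger shoot ratios. It had a mean reactivity of 0.189 in salt-treated roots, against 0.200 in control roots, and of 0.342 in salt-treated shoots, against 0.284 in control shoots. The root log2 ratio was -0.09, lower than in all but 6.86% of loci. The shoot log2 ratio of 0.27 was higher than in 98.7% of loci.

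ERF104, a substrate of the MAP kinase MPK6 in defence signalling, had 0.195 in salt-treated roots, against 0.205 in control roots. In shoots it had 0.384 with salt, against 0.348 without. Its log2 ratios were -0.07 in roots and 0.14 in shoots, where 6.52% of loci were higher. ERF5, a regulator of leaf growth under osmotic stress and of defence, had 0.163 in salt-treated roots, against 0.174 in control roots. Its shoot values were 0.266 with salt, against 0.239 without. With log2 ratios of -0.10 in roots and 0.15 in shoots, ERF5 followed the direction of ERF104 at a similar size.

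ERF1A, an activator that binds the GCC box, differed least among the group IX members. Its mean reactivity was 0.163 in salt-treated roots, against 0.166 in control roots, and 0.302 in salt-treated shoots, against 0.296 in control shoots. The log2 ratios were -0.03 in roots and 0.03 in shoots, so its place among the opposite-signed transcripts rests on very small differences. Relative to the median of all loci, the ERF1A log2 ratio in roots was -0.12.

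The repressor transcripts did not share the pattern. It was rare among all loci (5.74%), so 2 transcripts without it cannot set the repressors apart. ERF4, which restrains jasmonate- and ethylene-responsive defence genes, had 0.161 in salt-treated roots, against 0.173 in control roots, and 0.213 in salt-treated shoots, against 0.225 in control shoots. It was lower with salt in both tissues, at log2 ratios of -0.10 in roots and -0.08 in shoots. ERF7, which represses transcription in abscisic acid and drought responses, had 0.158 in salt-treated roots, against 0.146 in control roots, and 0.217 in both salt-treated and control shoots. Its root log2 ratio was 0.12 and its shoot log2 ratio 0.00. The repressors were also the least reactive members in shoots, ERF4 above 11.1% of loci with salt and 8.63% without, and ERF7 above 12.8% with salt and 5.61% without.

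**Figure D1:**
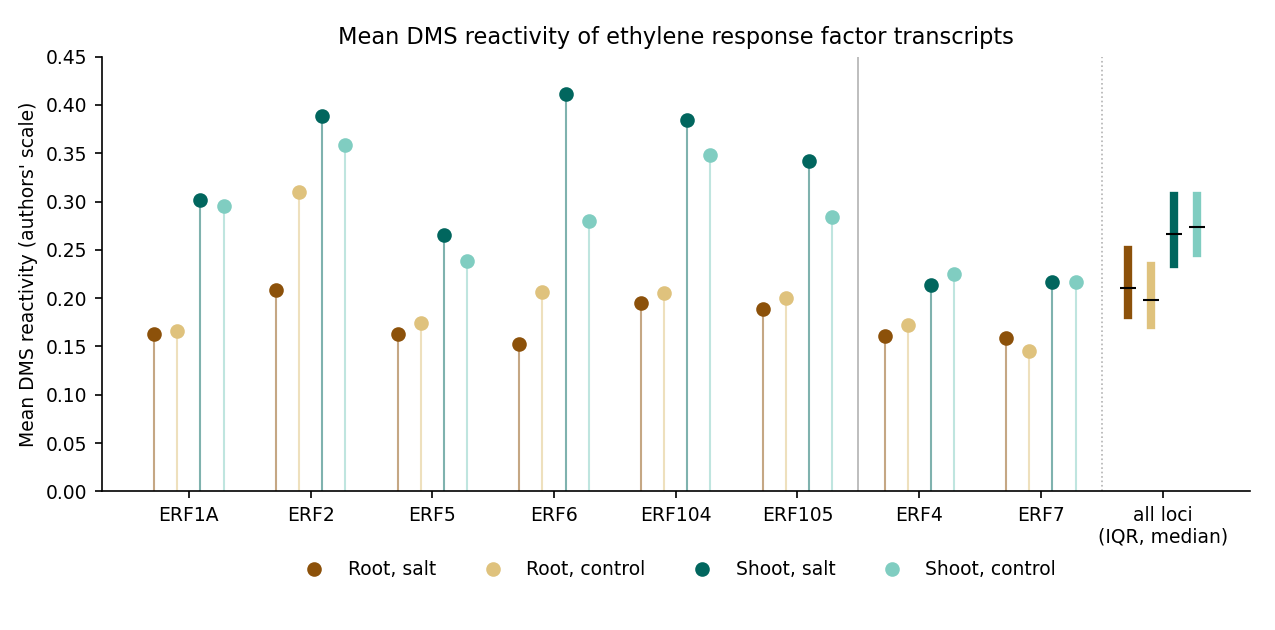
Mean DMS reactivity (authors' scale, from 0) of each ethylene response factor transcript in salt-treated roots, control roots, salt-treated shoots and control shoots, with group IX left of the solid line and group VIII right of it. At the far right, bars give the interquartile range (IQR) of all 8956 loci and dashes their median. Each point is 1 combined value with no error. ERF6 reaches 0.412 in salt-treated shoots and 0.153 in salt-treated roots.

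Counted over all members, 7 of 8 were lower with salt in roots, where 19.9% of loci were lower, and 6 of 8 were higher with salt in shoots, where 37.3% of loci were higher. The median log2 ratio of the members was -0.09 in roots, against 0.09 for all loci, and 0.13 in shoots, against -0.03 for all loci. Transcripts at large thus leaned the other way in each tissue. Among the group IX members the medians were -0.09 in roots and 0.15 in shoots. All 6 lay below the median of all loci in roots and above it in shoots.

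A ratio of at least 1.5-fold was taken as large. By that limit no member was lower in roots, where 0.427% of loci were, and none was higher in shoots, where 0.0893% of loci were. ERF2 in roots, lower by 1.49-fold, and ERF6 in shoots, at 1.47-fold, lay just inside the limit. Once ratios were centred on the median of all loci, each of these passed it. After that centring 47 of 8891 loci were lower in roots by that size, and 12 of 8956 were higher in shoots.

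Subtracting the shoot log2 ratio from that of roots gave the tissue difference of the salt effect. It was below 0 in 7 of 8 members, against 18.0% of loci. ERF6 differed by -0.99 and ERF2 by -0.69, which put 2 of 8 members past the 1.5-fold limit in that direction, against 0.461% of loci. The other group IX differences were -0.35 for ERF105, -0.26 for ERF5, -0.21 for ERF104 and -0.05 for ERF1A. ERF4 differed by -0.02. ERF7, at 0.12, lay next to the median of all loci, also 0.12 after rounding.

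**Figure D2:**
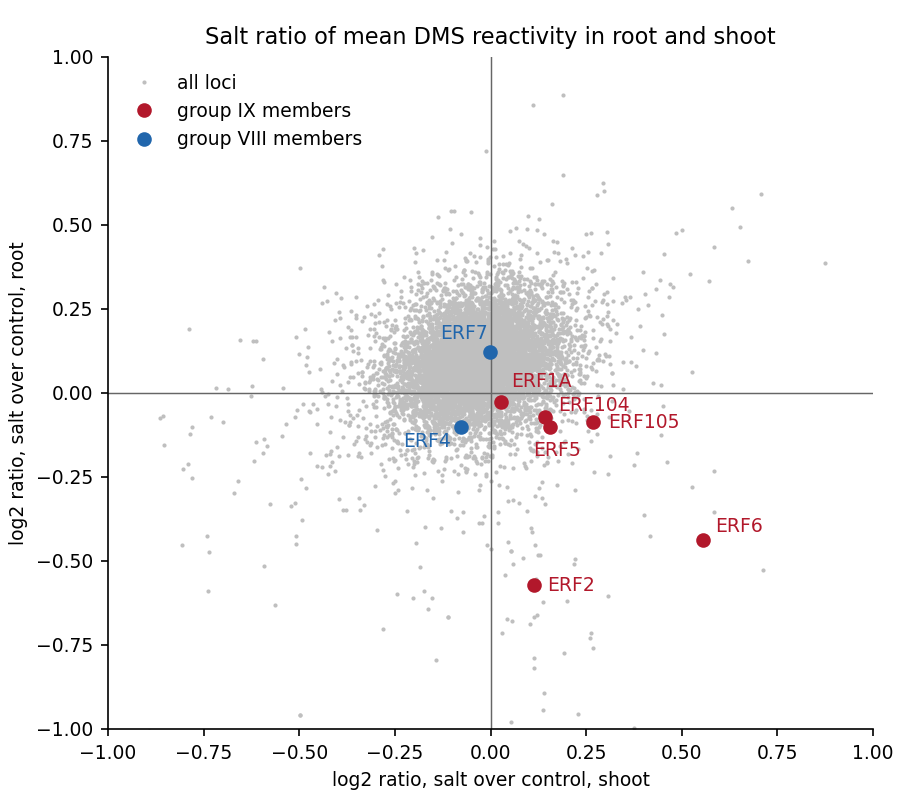
Log2 ratio of mean reactivity, salt over control, in shoots (horizontal axis) and roots (vertical axis) for 8891 loci (grey) and the members (red, group IX; blue, group VIII); 11 loci lie outside the axes. The 6 group IX transcripts sit in the lower right, above 0 in shoots and below 0 in roots, with ERF6 farthest from the centre at -0.44 in roots and 0.55 in shoots.

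In shoots the spread of reactivity along most member transcripts was wider with salt. The standard deviation between bases was higher with salt in shoots in 7 of 8 members, where 52.1% of loci were higher. In ERF6 it was 0.212 in salt-treated roots, against 0.314 in control roots, and 0.705 in salt-treated shoots, against 0.360 in control shoots. ERF6 was the only member higher by at least 1.5-fold in shoots (1.96-fold), a size reached by 0.614% of loci. ERF105 came close, with 0.532 in salt-treated shoots against 0.367 in control shoots, or 1.45-fold. In roots ERF2 was the only member lower by at least 1.5-fold, with 0.224 in salt-treated against 0.360 in control roots, where 0.607% of loci were lower by that much. The root value of ERF6, 0.674 times its control value, fell just short of the limit.

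The most reactive base of a transcript also differed with salt in some members. In shoots the highest reactivity of ERF6 was 3.124 with salt, against 1.622 without, and that of ERF105 was 2.849 with salt, against 1.886 without. These 2 of 8 members were higher by at least 1.5-fold, against 1.73% of loci. ERF5 had 2.650 in salt-treated shoots, against 1.906 in control shoots. In roots the highest value of ERF5 was 1.158 with salt, against 2.437 without, which made it the only member lower by at least 1.5-fold there, against 0.900% of loci. The mean reactivity of ERF5 in roots hardly differed between treatments, at 0.163 with salt against 0.174 without. ERF1A had 2.144 in salt-treated shoots, against 2.161 in control shoots, although its standard deviation was 0.448 with salt, against 0.387 without.

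**Figure D3:**
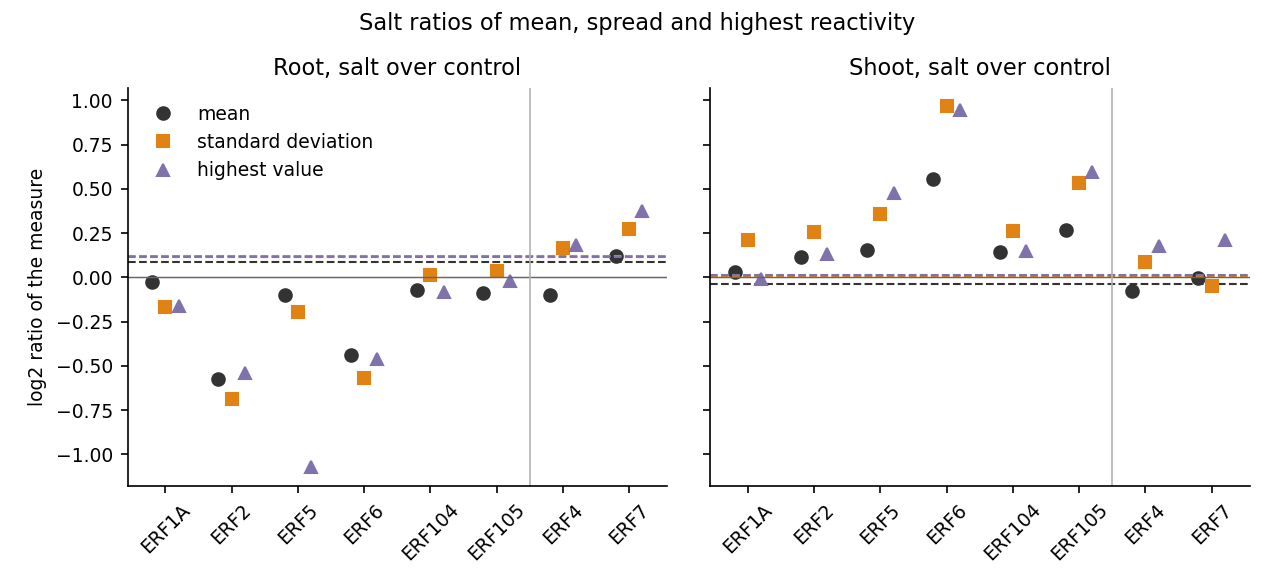
Log2 ratios, salt over control, of mean reactivity, its standard deviation between bases and its highest value for each member, in roots (left) and shoots (right). Dashed lines give the medians of all loci in the colour of each measure, and the vertical line separates group IX from group VIII. In shoots the standard deviation of all 6 group IX transcripts lies above 0, led by ERF6 at 0.97, and in roots the highest value of ERF5 lies lowest at -1.07.

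The Gini index was higher with salt in shoots in 7 of 8 members, but this was the common direction, found in 73.4% of loci. ERF6 had 0.772 in salt-treated shoots, against 0.659 in control shoots, a difference of 0.11 that was larger than in 99.8% of loci. ERF105 had 0.731 with salt, against 0.660 without, and ERF1A had 0.718 with salt, against 0.661 without. The median difference of the group IX members was 0.052, against 0.013 for all loci. Reactivity in these 6 transcripts was both higher on average and less even in salt-treated than in control shoots.

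In roots the members divided. The Gini index was higher with salt in 4 of 8 members, against 65.9% of loci. ERF4 had 0.781 in salt-treated roots, against 0.716 in control roots, a difference of 0.066 that was larger than in 99.4% of loci. ERF7 had 0.770 with salt, against 0.734 without. ERF1A, at 0.630 in salt-treated against 0.673 in control roots, and ERF2, at 0.579 against 0.619 in control roots, were more even with salt. ERF6 was too, with 0.684 in salt-treated roots, against 0.720 in control roots. In roots the repressor transcripts were thus less even with salt while ERF1A, ERF2, ERF5 and ERF6 were more even. ERF104 and ERF105 were less even, at differences of 0.027 and 0.030.

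**Figure D4:**
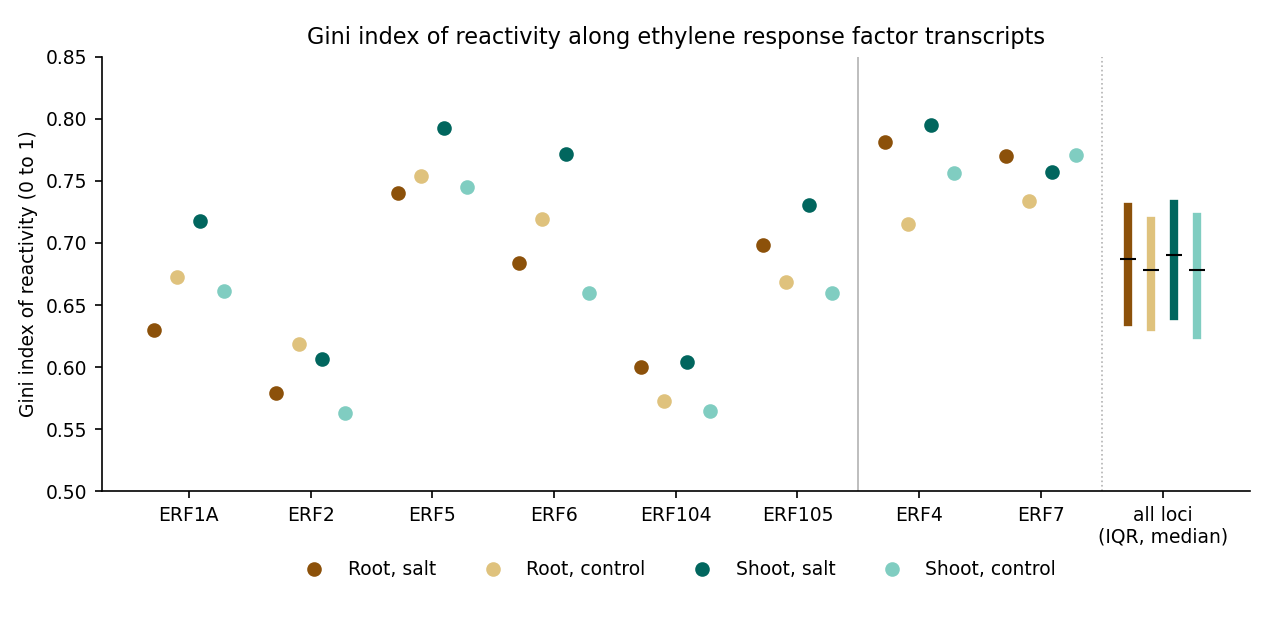
Gini index of reactivity for each member in the 4 conditions, with the interquartile range and median of all loci at the right; the axis runs from 0.5 to 0.85. ERF2 and ERF104 have the most even reactivity of the members in every condition, and ERF6 and ERF105 show the widest gap between salt-treated and control shoots.

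The members kept part of their order across conditions. ERF2 and ERF104 had Gini indices between 0.563 and 0.619, the lowest of the members, and were the most reactive members in control shoots. ERF4 and ERF7 had Gini indices between 0.716 and 0.795 and were the least reactive in shoots. Across all loci in shoots a high Gini index went with a low mean (Spearman's rho -0.993 without salt and -0.786 with salt). The orders by mean and by Gini index are therefore not independent there. In control shoots the order by mean reactivity ran from ERF2 (0.359) and ERF104 (0.348) through ERF1A (0.296), ERF105 (0.284) and ERF6 (0.280) to ERF5 (0.239), ERF4 (0.225) and ERF7 (0.217). ERF6 headed the order in salt-treated shoots. In salt-treated roots all members lay between 0.153 and 0.208, below the median of all loci at 0.210, and in control roots they spanned 0.146 to 0.310. Without replicates it is not known which neighbours in these orders differ.

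The comparison of tissues asks how the same transcript differed between roots and shoots. Most transcripts were less reactive in roots, at a root-over-shoot median of -0.32 with salt and -0.45 without on the log2 scale, so members are also given relative to these medians. With salt all 6 group IX members were lower in roots by at least 1.5-fold, and so were 9.51% of loci. After centring on the median of all loci, 2 members, ERF6 and ERF104, passed that limit, as did 148 of 8948 loci. Before centring, the log2 ratios of the 6 were -1.43 for ERF6, -0.98 for ERF104, -0.90 for ERF2, -0.89 for ERF1A, -0.86 for ERF105 and -0.71 for ERF5. The median of the 6 relative to that of all loci was -0.57. ERF6 had 0.153 in salt-treated roots and 0.412 in salt-treated shoots. ERF4, at -0.41, and ERF7, at -0.45, lay closer to the general ratio.

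Without salt the tissue ratios of the members were spread around that of all loci. Of the 8 members 2, ERF1A at -0.83 and ERF104 at -0.76, were lower in roots by at least 1.5-fold, against 25.3% of loci. The median of the 8 members was -0.48, close to the -0.45 of all loci. ERF2, at -0.21, was the member with the smallest tissue difference, since its control roots had 0.310 and its control shoots 0.359. The salt ratios and the tissue ratios come from the same 4 sets of values, and the log2 tissue ratio with salt is the sum of that without salt and the tissue difference of the salt effect. ERF1A and ERF104 were thus lower in roots without salt already, at -0.38 and -0.31 relative to the median of all loci. After centring on that median, 0 members passed the 1.5-fold limit without salt, against 180 of 8954 loci. For ERF6, most of the -1.43 came from the -0.99 of its salt difference.

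Related genes place these values. The ethylene pathway lists were drawn up with earlier results known, and 9 of 14 signalling genes and 7 of 11 genes for ERF partners and targets were in the table. Signalling transcripts had a median log2 ratio of 0.06 in roots and -0.09 in shoots, against 0.09 and -0.03 for all loci. In roots 8 of 9 were above 0, against 80.1% of all loci, and in shoots 4 of 9, against 37.3%, so both counts were near the general share. The receptor transcript EIN4 was at 0.21 in roots, the F-box gene EBF2 at 0.14, EIN2 at 0.00 and the receptor transcript ERS1 at -0.10. In shoots EIN3 and EIL1 were both at 0.05, RAN1, the copper transporter that serves the receptors, at -0.12 and ERS1 at -0.16. Of the 9 signalling transcripts 0 combined a shoot ratio above 0 with a root ratio below 0, which at 5.74% of all loci is too few genes to set them apart, and none passed the 1.5-fold limit in either tissue.

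Among partners and targets the median was 0.14 in roots and -0.07 in shoots. The corepressor subunit SAP18 was at 0.31 and the MAP kinase MPK6 at 0.21 in roots, where the kinase kinase MKK5 was at -0.08. In shoots the MAP kinase MPK3 was at 0.24, the corepressor TPL at -0.14 and MKK5 at -0.18. PR4, a hevein-like defence gene that responds to ethylene, was the 1 of these 7 transcripts with the sign pattern of the group IX members. It had 0.203 in salt-treated roots, against 0.213 in control roots (log2 ratio -0.07), and 0.399 in salt-treated shoots, against 0.322 in control shoots (log2 ratio 0.31).

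Of 31 other AP2/ERF factors listed, 11 were in the table. The sign pattern of the group IX members was found in 0 of these 11, which include the group IX factor ERF15, near the 5.74% of all loci. Their medians were 0.06 in roots and -0.08 in shoots, against 0.09 and -0.03 for all loci, and 9 of 11 were below 0 in shoots, against 62.7% of all loci. ERF109, a redox-responsive factor of group X, was the only one past the 1.5-fold limit. It had 0.145 in salt-treated roots, against 0.219 in control roots (log2 ratio -0.60), and a shoot log2 ratio of -0.25. DREB2A, a regulator of drought and heat genes, was lower in both tissues, at -0.45 in roots and -0.51 in shoots. At the other end were RAP2.12, a hypoxia regulator, at 0.22 and CRF2, a cytokinin response factor, at 0.18 in roots, and DEAR1 at 0.10 and CRF2 at 0.05 in shoots. ERF15, a group IX factor outside the list of members, stood at 0.00 in roots and -0.12 in shoots. The group VIII repressor ERF3 stood at 0.12 in roots and -0.16 in shoots, and ERF11 at -0.17 in roots and -0.09 in shoots. These 3 relatives were picked out after their values were seen.

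Rapid stress transcription factors of other families were mostly lower with salt in both tissues. Of the 6 in the table, 5 were lower with salt in roots, at a median of -0.23, where 19.9% of all loci were lower. In shoots 5 were lower too, at a median of -0.17, but there lower was the common direction, with 62.7% of all loci. The zinc finger gene ZAT12 was lowest in both, at -0.35 in roots and -0.39 in shoots, followed by WRKY40 at -0.25 in roots and ZAT6 at -0.36 in shoots. ZAT6, at 0.17, and WRKY25, at -0.20, were highest in roots, and WRKY33, at 0.03, and WRKY40, at -0.01, in shoots. WRKY33, a defence regulator, was the 1 of the 6 with the sign pattern of the group IX members, at a shoot ratio as small as that of ERF1A.

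**Figure D5:**
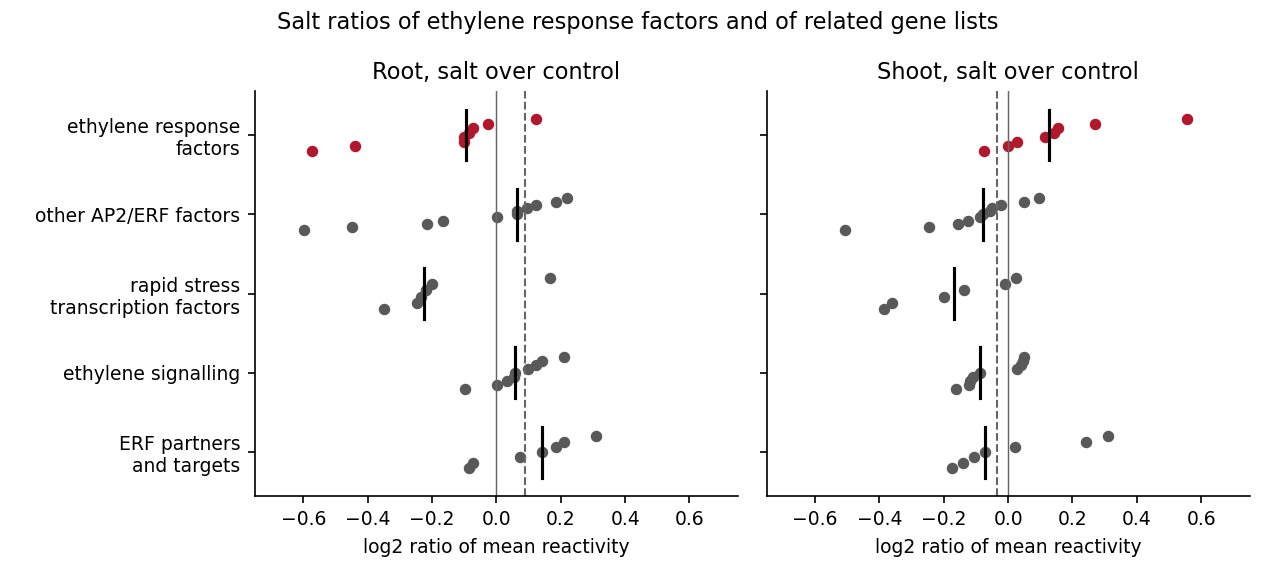
Log2 ratio of mean reactivity, salt over control, in roots (left) and shoots (right) for the ethylene response factors (red) and the related lists (grey). Each point is 1 transcript, black bars are list medians and dashed lines the medians of all loci. The ethylene response factors have the median farthest above 0 in shoots, at 0.13, whereas the rapid stress factors lie lowest there, at -0.17.

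Profiles over the 4 conditions were compared by the Euclidean distance between log2 mean reactivities, each taken relative to the average of its own locus. The 5 loci nearest to the median profile of the members, of 8848 ranked, were AT4G39366, AT5G07820, HSPRO2, AT1G67800 and AT4G27450, at distances of 0.050 to 0.076. HSPRO2 had 0.202 in salt-treated roots, against 0.230 in control roots, and 0.363 in salt-treated shoots, against 0.334 in control shoots. ERF105, at 0.082, and ERF5, at 0.091, were the members nearest to that profile, and ERF6 was the farthest, at 0.44. The median profile was thus closer to ERF5 and ERF105 than to ERF6, but it was computed from the members themselves. Their distances are therefore not on a par with those of the ranked loci, which did not enter the median profile. Of the 8848 ranked loci, 5859 lay closer to it than ERF6, 2653 closer than ERF2 and 2574 closer than ERF4. For ERF5 and ERF105 the number was 6 each, so the nearest loci do not resemble every member.

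Some members are close neighbours in the genome. In the RefSeq annotation of TAIR10.1, ERF1A and ERF6 lie next to each other with 0 genes between them, and ERF2 and ERF5 are separated by 2 genes. The neighbours differed in their values: ERF6 had a tissue difference of the salt effect of -0.99 and ERF1A of -0.05, and ERF2 had -0.69 and ERF5 -0.26. Reads of related genes may have been shared between members to an extent that is unknown. While 0 members shared all their values with another transcript, partial sharing of reads would not show in that check.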

How the data were processed

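The 24 Structure-seq2 libraries came from poly(A)-selected RNA, 3 independent replicates for every combination of tissue, salt and DMS, per the labels' protocols. The deposited table has 1 value per transcript and condition, with replicates already combined. Per the file headers, the mean, standard deviation and highest DMS reactivity are deposited scores on the authors' scale, and the Gini index is a deposited fraction. Which aligner, build, bases, normalization and coverage filter were used was not given in the sources used here. Depth is unknown, which leaves no counting interval, and single values per condition allowed no test.

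Members and lists were chosen with earlier results of these data known. The isoform with the lowest number stood for each locus. Log2 ratios were taken without pseudocount over loci whose mean reactivity over both conditions reached 0.1, and 1.5-fold counted as large. Percentages of loci are ranks of a member among all loci compared. Named genes were all members in the table, the 2 highest and 2 lowest of each other list per salt ratio, and the 5 nearest profiles; 1 further list is not reported here. ERF15, ERF3 and ERF11 were named outside this rule, after their values were seen. Symbols came from the lists or the RefSeq table of TAIR10.1, which held 99.3% of loci. Alternatives were other minimums, a pseudocount of 0.1, all isoforms, centring, a size limit of log2 0.32, and the SD-to-mean ratio instead of the Gini index. Calculations used Python 3.11.15, pandas 2.3.3 and NumPy 2.4.6. Only the shoot salt ratio of mean reactivity and the tissue difference were tested on simulated data.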

Additional observations from a re-analysis of the deposited data

Results flagged for a closer look

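The salt ratio of mean reactivity was below 0 in roots and above 0 in shoots for 6 members, each from 1 value per condition, and the difference between the tissues was not tested. On the log2 scale, the root ratio less the shoot ratio was -0.99 for ERF6, -0.69 for ERF2, -0.35 for ERF105, -0.26 for ERF5, -0.21 for ERF104 and -0.055 for ERF1A.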

How the results depend on the processing

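The opposite signs stayed in all 6 group IX members without a minimum, with a pseudocount of 0.1, with all isoforms and after centring. None of these settings could have reversed them. Each member had 1 isoform and passed the main minimum, and a pseudocount keeps the sign of a ratio. Centring lowered root ratios and raised shoot ratios, because the medians of all loci were 0.09 and -0.03. A minimum of 0.2 left only ERF2 and ERF104, at unchanged ratios, and moved the members' root median to -0.32. With that minimum 1 of 2 members passed the 1.5-fold limit in the tissue difference, against 37 of 4851 loci. By that limit 525 of 7386 loci were lower in salt-treated roots than in salt-treated shoots. After centring, 1 of 8 members was higher in shoots (12 of 8956 loci) and 1 lower in salt-treated than in control roots (47 of 8891). Lower in salt-treated roots than in salt-treated shoots were 2 members (148 of 8948 loci). For the tissue difference 2 members were lower (64 of 8891 loci). Without salt 0 members were lower in roots than in shoots (180 of 8954 loci), and the members' median was -0.025. Centring also turned the tissue ratios without salt of ERF2 (0.24), ERF4 (0.073), ERF5 (0.00086) and ERF6 (0.015) and the shoot ratio of ERF7 (0.033). With the pseudocount, 1 of 8 members passed in the tissue difference, against 28 of 8891 loci. For root over shoot without salt 0 members did, against 377 of 8954 loci. Over all loci, 2 of 8956 were higher in shoots, 17 of 8891 lower in roots and 184 of 8948 lower in roots than shoots with salt. All isoforms gave 13 of 12978 transcripts higher in shoots, against 8 of 8956 loci with 1 isoform each. A size limit of log2 0.32 gave 1 of 8 members higher in shoots (55 of 8956 loci) and 2 lower in roots (94 of 8891 loci). In control roots against control shoots 7 of 8 members were lower, but so were most loci (6605 of 8954). At that limit 8 of 8 members were lower in salt-treated roots than salt-treated shoots (4445 of 8948 loci). In the tissue difference 3 of 8 members were lower (114 of 8891 loci). The members' median Gini difference in roots, 0.0069, became -0.0055 as a log2 ratio of standard deviation over mean. For changes with a cause not given by construction, the cause was not tested. No paired analysis was possible because the table holds 1 value per condition. Unknown depth limits all values.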
